A study of Mus musculus with 768 samples.

Results

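The surface and cytoskeletal marker genes of immature Schwann cells were followed in single Schwann cells of the mouse sciatic nerve at postnatal day 5. The markers were Ngfr, Ncam1, L1cam, Chl1, Gap43, Gfap, Cdh2, Scn7a and Ntm, chosen by name and found in the count table by their Ensembl identifiers, 9 of 25700 genes. Each cell was a well of a 384-well plate read with Smart-Seq2, a protocol that covers whole transcripts without molecular identifiers, and each of the 2 plates was 1 biological replicate with cells of different animals. Per the study's methods, the mice carried 1 copy each of a Cre transgene active in the Schwann lineage, of the Cre-dependent reporter (ReYFP Tg/+) and of βAct-DsRed (Tg/+) on a C57bl/6J background, with 1 male and 1 female pooled per plate and no mutant group. Cells were sorted by eYFP, so cells of the Schwann lineage that had not recombined the reporter were not sampled.

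Of 768 wells, 655 lay outside the plate corners and had at least 1500 detected genes, with 3306 to 2495101 reads per well and medians of 593534 in replicate 1 and 559286 in replicate 2. Wells were put into 4 states by reads of 12 other genes. Cycling wells had 5 or more reads in at least 3 of 10 mitosis genes. Of the others, immature wells had under 10 CPM (counts scaled to the total reads of the well) of Ncmap, a protein of myelin Schmidt-Lanterman incisures and paranodes. Intermediate wells had more Ncmap and under 30000 CPM of Pmp22, a compact myelin protein, and myelinating wells had more of both. This gave 57 cycling, 228 immature, 149 intermediate and 221 myelinating wells. These states are ranges of measured expression and not labels of the submitters. The 3 wells with Ncmap between 10 and 20 CPM and the 9 with 5 to 10 CPM lay near that border, and 38 and 35 wells lay within 10000 CPM below and above the Pmp22 border.

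Immature Schwann cells descend from neural crest cells and still divide. Those that sort out a single large axon go on to build myelin, while those that keep groups of small axons become non-myelinating Remak cells, which are known to retain several immature surface markers. Ncam1, L1cam and Chl1 are cell adhesion molecules of the immunoglobulin superfamily, Ntm is a GPI-anchored IgLON adhesion molecule and Cdh2 is N-cadherin. Ngfr is the p75 neurotrophin receptor, Scn7a encodes the sodium-sensing channel Nax, Gap43 is a growth-associated membrane protein and Gfap is a glial intermediate filament.

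As a check of the label, 7 of the 9 genes had higher levels in immature than in myelinating wells of both plates, of which 3 passed the test (edgeR), and Cdh2 was higher still in cycling wells. Gap43 and Gfap had too few reads for this check. The members were chosen with earlier results of these data known, so the check is not independent of the data. A well was counted as positive for a gene from 5 reads on. Ncam1 was positive in 329 of 655 wells, Ntm in 132, Scn7a in 125, Ngfr in 119, Chl1 in 79, L1cam in 72 and Cdh2 in 39. Gap43 was positive in 6 wells and Gfap in 1. On a per-length scale, CPM per kilobase of merged exons, the immature level was highest for Ncam1 with 59.5 and 54.6 in replicates 1 and 2. Ntm followed with 33.7 and 17.9, Ngfr with 22.4 and 15.99 and Scn7a with 12.2 and 21.9, and the plate values of these 3 neighbours overlapped. L1cam had 4.87 and 6.42, Chl1 4.41 and 4.19, and Cdh2 1.34 and 1.56, with no overlap between these 3 or with Scn7a. Gap43 had 1.96 and 0.361, overlapping Cdh2, and Gfap had no read in immature wells.

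Ncam1 was the member found in most immature cells. Its level in the summed reads was 444 and 586 CPM in cycling wells of replicates 1 and 2, 516 and 473 CPM in immature wells, 93.6 and 56.1 CPM in intermediate wells and 2.98 and 3.89 CPM in myelinating wells. The cycling and immature sums overlapped, and each later state lay below both. It was positive in 96.9% and 92.0% of cycling wells, 88.7% and 89.3% of immature wells, 35.4% and 44.3% of intermediate wells and 6.48% and 5.31% of myelinating wells. The amount per positive well fell as well, from a median of 464 and 468 CPM in immature wells to 174 and 82.0 CPM in intermediate wells and 17.3 and 68.6 CPM in the 7 and 6 positive myelinating wells. In edgeR's quasi-likelihood test over the 8 sums of plate and state, with Benjamini-Hochberg adjustment over 13892 genes, Ncam1 fell from immature to intermediate wells by 2.58 on the log2 scale (SE 0.297, adjusted p = 0.00353). From intermediate to myelinating wells it fell by 4.21 (SE 0.321, adjusted p = 0.00105), and between immature and myelinating wells it fell by 6.79 (SE 0.362, adjusted p = 2.45e-05).

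Ntm, also called neurotrimin, was still frequent in intermediate wells and nearly without reads in myelinating wells. It had 140 and 210 CPM in cycling wells, 272 and 145 CPM in immature wells, 106 and 88.0 CPM in intermediate wells and 0.0508 and 0.0459 CPM in myelinating wells. The last of these were 5 and 4 reads, no well with more than 1, so that 0 of 221 myelinating wells were positive. By a floor of 3 wells, a true share of 1.36% or less could have been missed. Positive wells made up 37.7% and 34.4% of immature wells and 18.99% and 21.4% of intermediate wells. Among positive wells the median was 367 and 309 CPM in immature and 224 and 337 CPM in intermediate cells, and these plate values overlapped, unlike those of Ncam1. The difference between intermediate and immature sums did not pass the test (log2 change -0.96, SE 0.347, edgeR adjusted p = 0.308). The drop from intermediate to myelinating wells passed it (edgeR adjusted p = 1.13e-04), as did that from immature wells (edgeR adjusted p = 1.70e-05). The fitted log2 changes of -10.66 and -11.63 rest on those 9 reads and depend on the prior count.

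**Figure D1:**
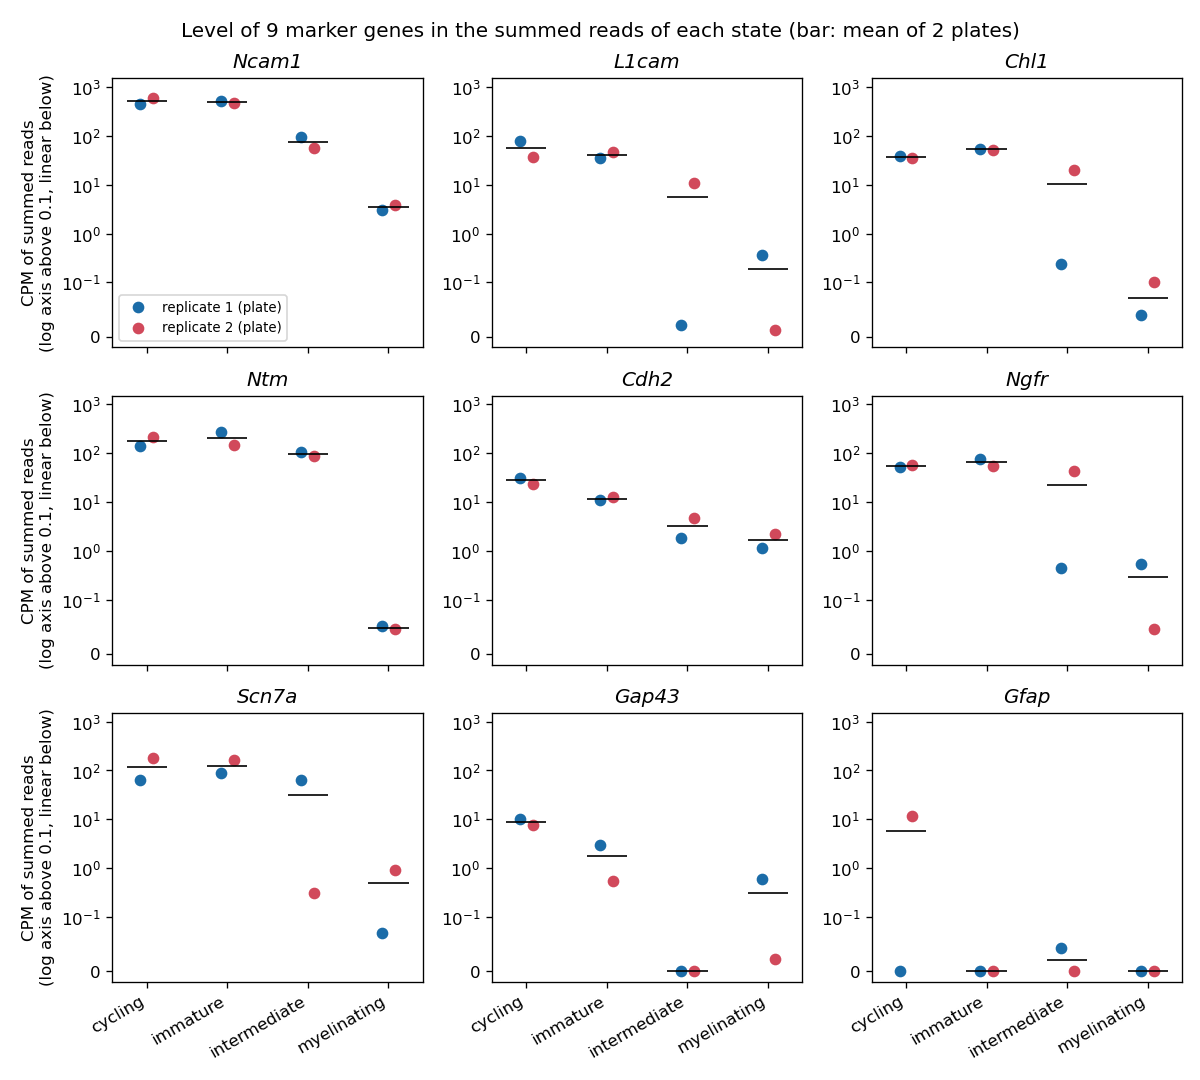
Level of each marker gene in the summed reads of a state, in CPM on an axis that is logarithmic above 0.1 and linear below, with a point for each of the 2 plates and a bar at their mean. Ntm has 272 and 145 CPM in immature wells and Ncam1 93.6 and 56.1 CPM in intermediate wells, whereas Ngfr, L1cam, Chl1 and Scn7a have intermediate sums that differ widely between plates, from 0.312 to 63.7 CPM for Scn7a.

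The other adhesion molecules of the L1 family were found in a smaller share of immature wells and in few wells with Ncmap. L1cam, an axon-glia adhesion molecule, had 76.9 and 36.6 CPM in cycling wells and 35.8 and 47.2 CPM in immature wells. It then had 0.0213 and 11.02 CPM in intermediate wells and 0.355 and 0.0115 CPM in myelinating wells. Positive wells were 21.7% and 22.1% of immature wells, 0% and 2.86% of intermediate wells and 0.926% and 0% of myelinating wells. Chl1, the close homolog of L1, had 38.5 and 35.9 CPM in cycling wells and 54.2 and 51.5 CPM in immature wells. In intermediate wells it had 0.235 and 20.4 CPM and in myelinating wells 0.0406 and 0.103 CPM, and the share of positive wells went from 22.6% and 22.95% of immature wells to 1.27% and 7.14% and then to 0% and 0.885%. Chl1 passed the test between immature and myelinating wells (edgeR adjusted p = 0.0254, fitted log2 change -9.11, which rests on 13 reads and depends on the prior count), and L1cam did not (log2 change -7.40, SE 2.24, edgeR adjusted p = 0.120). The call for Chl1 was lost without immature replicate 2 (adjusted p = 0.0544), without myelinating replicate 1 (0.0806) or 2 (0.0578) and with the Pmp22 border at 20000 CPM (0.392), over a range of 3.70e-11 to 0.392 in 24 alternatives. The genes lie in a table counted with an unstated strand setting, where L1cam overlaps Arhgap4 and Avpr2 and Chl1 overlaps Gm44436, Gm44439, Gm44440 and Gm44441, so reads of these neighbours cannot be told apart from theirs.

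Cdh2 had its highest level in dividing cells. N-cadherin had 31.6 and 23.6 CPM in cycling wells, 10.8 and 12.6 CPM in immature wells, 1.79 and 4.73 CPM in intermediate wells and 1.15 and 2.20 CPM in myelinating wells. Positive wells were 18.8% and 16% of cycling wells and 5.66% and 10.7% of immature wells, then 1.27% and 5.71% of intermediate and 1.85% and 2.65% of myelinating wells. The plates did not overlap between cycling and immature wells, but the difference did not pass (log2 change 1.34, SE 0.875, edgeR adjusted p = 0.496). The difference between myelinating and immature wells did not pass either (log2 change -2.42, SE 0.906, edgeR adjusted p = 0.221), although DESeq2 gave an adjusted p of 0.0459, within a range of 0.0459 to 0.838 over 24 alternatives.

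Ngfr and Scn7a marked a subset of the immature cells, with the same number of positive wells, 85 of 228 each. Ngfr, a low-affinity receptor for neurotrophins, had 52.0 and 56.3 CPM in cycling wells, 77.2 and 55.1 CPM in immature wells, 0.448 and 44.0 CPM in intermediate wells and 0.528 and 0.0459 CPM in myelinating wells. Its positive wells were 46.9% and 56.0% of cycling wells, 38.7% and 36.1% of immature wells, 1.27% and 4.29% of intermediate wells and 0.926% and 0% of myelinating wells. Scn7a had 64.2 and 176 CPM in cycling wells, 89.4 and 161 CPM in immature wells, 63.7 and 0.312 CPM in intermediate wells and 0.0711 and 0.928 CPM in myelinating wells. Its positive wells were 59.4% and 68.0% of cycling wells, 32.1% and 41.8% of immature wells, 2.53% and 1.43% of intermediate wells and 0% and 0.885% of myelinating wells. For both genes the shares were low in intermediate wells of both plates, while 1 of the 2 intermediate sums was high.

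Those high sums came from single wells with little Ncmap and Pmp22 for the intermediate state. In replicate 2, the well in position E06 held 1664 of the 1832 intermediate Ngfr reads and 322 of the 459 L1cam reads. It had 52.6 CPM of Ncmap and 1155 CPM of Pmp22, against medians of 1586 and 11849 CPM over the 145 Ngfr-negative intermediate wells. In replicate 1, well D16 held 2943 of 2988 Scn7a reads, with 30.5 CPM of Ncmap and 1046 CPM of Pmp22. Its Scn7a level was 11232 CPM, against at most 1497 CPM in immature wells, and it had 1821 detected genes. Without the single well, the intermediate level of Ngfr in replicate 2 was 4.20 CPM and that of Scn7a in replicate 1 was 0.965 CPM. In the test over all sums, neither gene passed between intermediate and immature wells (Ngfr log2 change -1.46, SE 1.47, edgeR adjusted p = 0.850; Scn7a log2 change -1.81, SE 1.62, edgeR adjusted p = 0.807). With wells that held most reads of a member left out, an alternative chosen after seeing the data, the edgeR adjusted p of Scn7a was 0.00303 with a log2 change of -7.42, and over 24 alternatives it ranged from 0.00303 to 1. The wells left out were picked by the members' own reads. Those picked for Scn7a were an intermediate and a myelinating well, so their removal favoured a fall and the value is no independent support for it. Between myelinating and immature wells, Ngfr (log2 change -7.44, SE 1.93, edgeR adjusted p = 0.0692) and Scn7a (log2 change -7.59, SE 2.12, edgeR adjusted p = 0.0917) did not pass, and they passed in 11 and 12 of 24 alternatives.

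**Figure D2:**
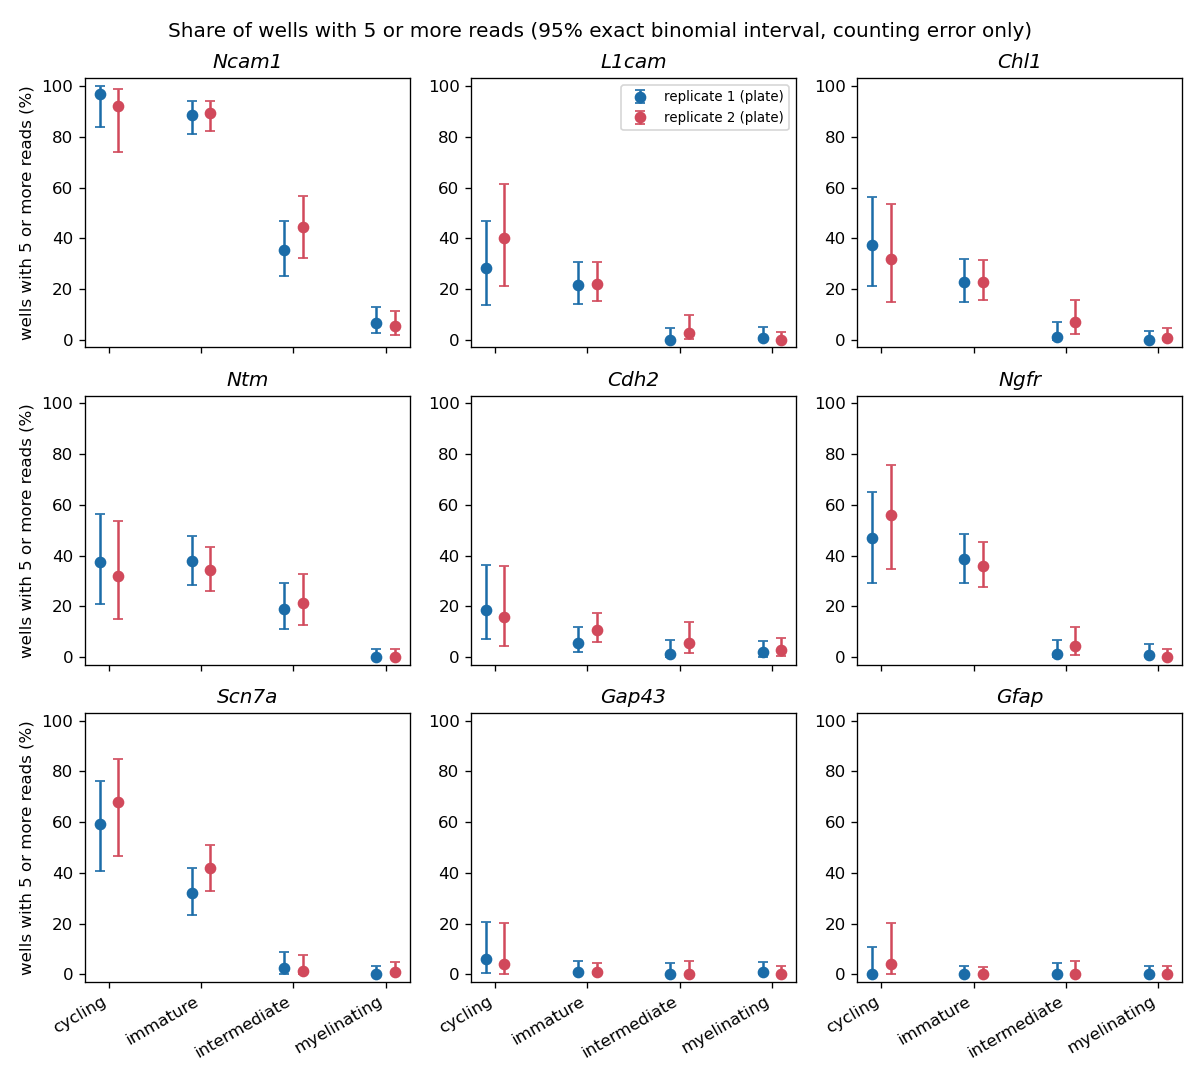
Share of wells with 5 or more reads of each marker gene by state, in percent, with a point for each of the 2 plates and its exact 95% binomial interval for counting error. Ncam1 is at 88.7% and 89.3% of immature wells, 5 other genes lie between 21.7% and 41.8% there, and Gap43 and Gfap stay near 0.

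The cytoskeletal and growth-associated members were nearly absent. Gap43 had 200 and 107 reads in cycling wells, 161 and 33 in immature wells, 0 in all 149 intermediate wells and 58 and 2 in myelinating wells. Its 6 positive wells were 3 cycling, 2 immature and 1 myelinating well, and all 6 were positive for Ncam1 and 5 of them for Ngfr. The myelinating one, well H22 of replicate 1, was also the only myelinating well with 3 members. The difference between cycling and immature wells did not pass (log2 change 2.43, SE 2.02, edgeR adjusted p = 0.609). Gfap had 161 reads in 1 cycling well of replicate 2, 2 reads in intermediate wells and none elsewhere, so it did not enter the test, and no fold is given. By the same floor, a Gfap share of 1.316% or less of the 228 immature wells could have been missed.

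Read over all comparisons, members were called lower and never higher. Of the 9 members, 8 passed the filter on low counts and entered the test. Between intermediate and immature wells 1 of the 8 was lower (Ncam1), beside 0.986% of all 13892 genes lower, and 0 were higher, beside 0.965%. Between myelinating and intermediate wells 2 were lower (Ncam1 and Ntm), beside 0.425%, and 0 were higher, beside 0.346%. Between myelinating and immature wells 3 were lower (Ncam1, Ntm and Chl1), beside 2.51%, and 0 were higher, beside 2.58%. The median log2 change of the 8 members there was -7.42, and that of all genes -0.04. The same count was 7 of 8 by DESeq2 and 6 of 7 tested when wells holding most reads of a member were left out. The latter setting was chosen after seeing the data and picks wells by the members' own reads. The shares of all genes called under these 2 settings are not given here, so the counts cannot be set against them.

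Between cycling and immature wells no member passed. In edgeR 0 of 8 members were called in either direction, beside 1.21% of genes called higher and 1.25% called lower. Also 0 of the 8 had an unadjusted edgeR p under 0.05, beside 2132 of all 13892 genes. DESeq2 called 0, and its share of all genes called is not given here. The median log2 change of members was 0.11, that of all genes -0.13. In shares of positive wells, Scn7a was at 185% and 163% of its immature share and Ngfr at 121% and 155%, and cycling wells were also deeper, with a median of 583889 reads against 450308. Of wells thinned to 100000 reads, Scn7a was positive in 45.2% and 66.7% of cycling and 29.7% and 36.8% of immature wells. Ngfr was positive in 22.6% and 33.3% of thinned cycling and 26.7% and 22.2% of thinned immature wells, so its direction differed between plates. With 2 plates a state no exact two-sided permutation test of shares, 2 plates against 2, can go below p = 0.333.

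Counting positive wells in place of reads limits the weight of a single well. In intermediate wells, the share of positive wells was 3.27% and 11.9% of the immature share for Ngfr, 0% and 12.9% for L1cam, 5.59% and 31.1% for Chl1 and 7.89% and 3.42% for Scn7a. In myelinating wells these 4 genes were at 0% to 4.27% of it. Ncam1 at 39.97% and 49.6% and Ntm at 50.3% and 62.2% of their immature shares were the members with most positive intermediate wells. Cdh2 was at 22.4% and 53.6% of its immature share in intermediate wells, from 1 and 4 positive wells. In myelinating wells it was at 32.7% and 24.9%, from 2 and 3 positive wells, so its share fell less than those of the 4 genes above. Median depth was 450308 reads in immature, 517142 in intermediate and 765668 in myelinating wells. In wells thinned to 100000 reads, Ncam1 was positive in 86.2% of immature, 28.4% of intermediate and 3.20% of myelinating wells, and Ntm in 33.9%, 19.9% and 0%.

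A finer division of the non-cycling wells placed the losses at different points. Among immature wells with Pmp22 under 3000 CPM, 88.6% of 158 were positive for Ncam1, 41.8% for Ntm, 32.3% for Scn7a, 31.6% for Ngfr and 3.16% for Cdh2. Among immature wells with more Pmp22, 90% of 70 were positive for Ncam1, 22.9% for Ntm, 48.6% for Scn7a, 50% for Ngfr and 20% for Cdh2. Among Ncmap-positive wells with Pmp22 under 10000 CPM, Ncam1 was positive in 55.2% of 67 wells and Ntm in 37.3%, but Ngfr in 5.97%, Scn7a in 4.48%, L1cam in 2.99% and Chl1 in 5.97%. With Pmp22 from 10000 to 30000 CPM, Ncam1 remained in 26.8% of 82 wells and Ntm in 6.10%, and Ngfr, Scn7a and L1cam were in 0. Above 60000 CPM, Ncam1 was in 3.15% of 127 wells and Cdh2 in 3.94%. The Cdh2 level was 3.46 and 2.31 CPM in immature wells with Pmp22 under 3000 CPM. It was 30.9 and 30.5 CPM in those with more Pmp22, and 1.86 and 3.47 CPM in wells above 60000 CPM. The higher Cdh2 level of immature than of myelinating wells was thus not seen in the immature wells with least Pmp22 in both plates. The steepest drop of Ngfr and Scn7a thus lay between immature wells and the first Ncmap-positive class, and that of Ntm in the class after it. In both plates Ntm was more frequent among Ncmap-positive wells with Pmp22 under 10000 CPM (40% and 34.4%) than among immature wells with Pmp22 of 3000 CPM or more (26.7% and 20%), and Ngfr was less frequent (2.86% and 9.38% against 43.3% and 55%).

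**Figure D3:**
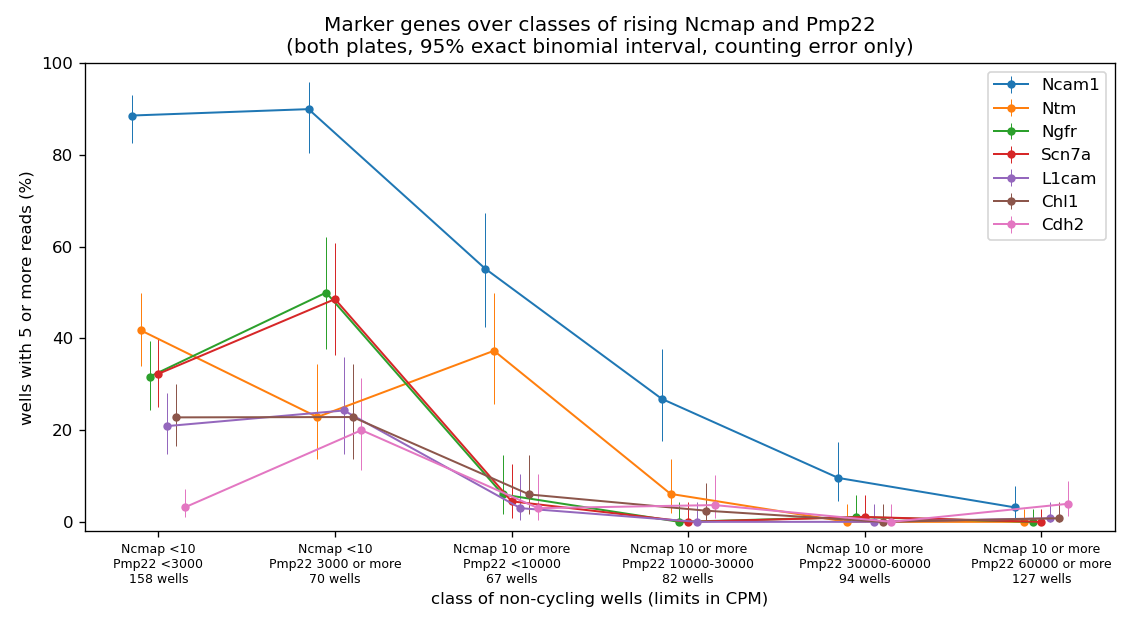
Share of wells with 5 or more reads of 7 marker genes, in percent, over 6 classes of non-cycling wells ordered by Ncmap and Pmp22, both plates together, with exact 95% binomial intervals for counting error. Ngfr and Scn7a drop from 50% and 48.6% to 5.97% and 4.48% at the Ncmap border, where Ntm stands at 37.3% and Ncam1 at 55.2%.

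Within the immature wells, Ngfr and Ntm were mostly in different cells. Of Ngfr-positive wells, 24.4% in replicate 1 and 6.82% in replicate 2 were also Ntm-positive, against 46.2% and 50% of Ngfr-negative wells. In all, 72 immature wells had Ngfr without Ntm, 69 had Ntm without Ngfr, 13 had both and 74 had neither. Median depths were 458324, 478376, 552663 and 337700 reads in this order, and wells with neither were the shallowest. Scn7a was positive in 59.7% of wells with Ngfr alone and in 17.4% of wells with Ntm alone, L1cam in 31.9% and 10.1%, Chl1 in 30.6% and 14.5% and Cdh2 in 16.7% and 2.90%. Ncam1 differed less, with 95.8% and 88.4%. In cycling wells this division was not seen, with Ntm in 34.5% of 29 Ngfr-positive and 35.7% of 28 Ngfr-negative wells. Median Pmp22 was 2724 CPM in immature wells with Ngfr alone and 1564 CPM in wells with Ntm alone.

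Some pairs showed no division that held in both plates. Ntm was in 39.4% and 33.0% of immature wells with Ncam1 and in 25% and 46.2% of the 25 without it. Chl1 was in 17.4% and 40.7% of L1cam-positive against 24.1% and 17.9% of L1cam-negative wells. Scn7a was in 48.8% and 68.2% of Ngfr-positive immature wells and in 21.5% and 26.9% of Ngfr-negative ones, and L1cam in 31.7% and 34.1% against 15.4% in both plates. All 19 Cdh2-positive immature wells had Ncam1, 14 had Scn7a, 13 had Ngfr and 3 had Ntm. Among 2759 genes positive in 20% to 60% of immature wells of both plates, 13 (0.471%) were at least 2 times as frequent in Ngfr-positive as in Ngfr-negative wells of both plates, and Scn7a and L1cam were among them, while Chl1 was not. Another 23 genes (0.834%) were at most 0.6 times as frequent in both plates, and Ntm was among them. Both limits were chosen after the values were seen. Wells with 5 or more reads of Entpd2, an ectonucleotidase, were positive for Ngfr in 49.3% and 44.0% and for Ntm in 31.0% and 30.8%. The other immature wells were positive for Ngfr in 17.1% and 12.9% and for Ntm in 51.4% and 45.2%.

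**Figure D4:**
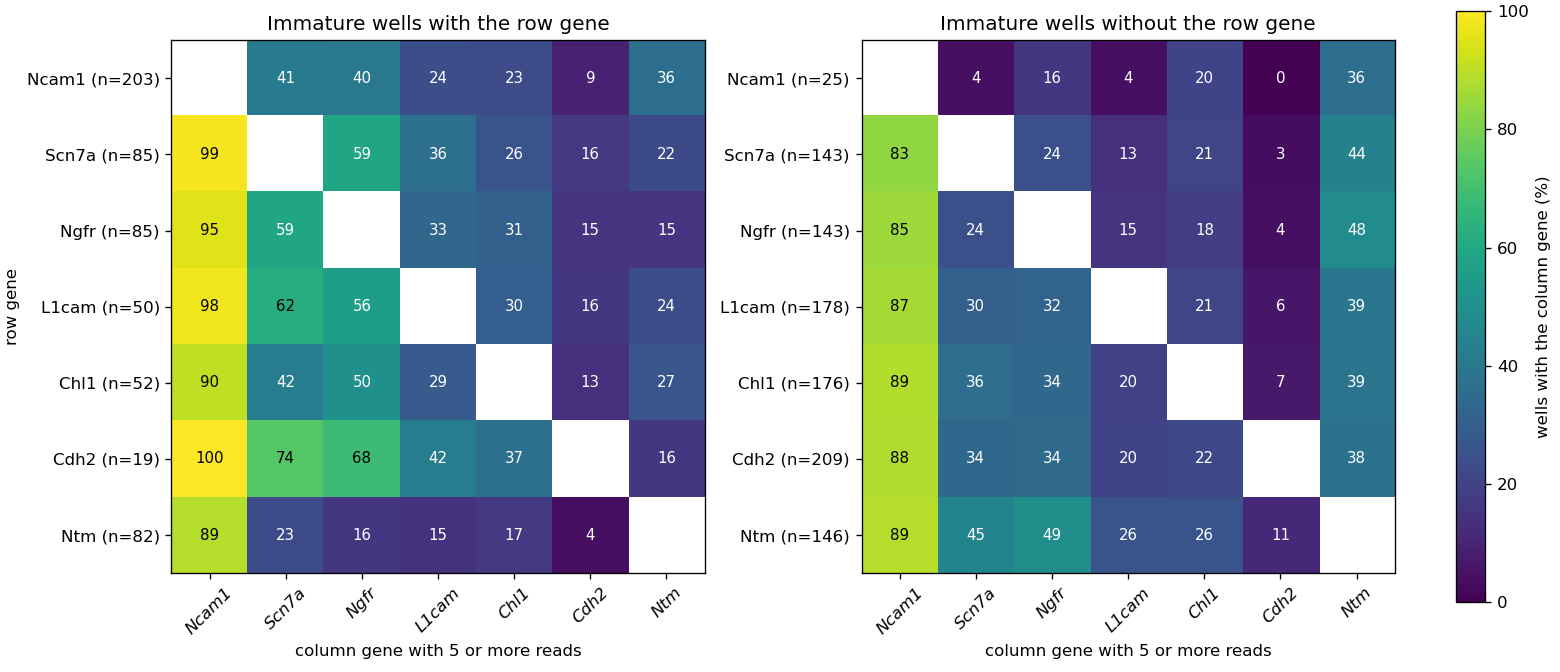
Percent of immature wells with 5 or more reads of the column gene, among wells with (left) and without (right) 5 or more reads of the row gene, both plates together, with the number of wells beside each row gene. Scn7a is in 59% of Ngfr-positive and 24% of Ngfr-negative wells, and Ntm in 15% and 48%.

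The number of members per well fell in steps between states. The median was 3 in cycling wells of both plates, 2 and 2.5 in immature wells, 0 and 1 in intermediate wells and 0 in myelinating wells. Of 228 immature wells, 11 had none of the 9, 35 had 1, 74 had 2, 61 had 3, 25 had 4, 20 had 5 and 2 had 6. Of 149 intermediate wells 73 had none and 47 had 1, and the 20 wells with both Ncam1 and Ntm were the most frequent pair. Of 221 myelinating wells 200 had none and 20 had 1. A single cycling well, D12 of replicate 1, had 7 members, all but Gfap and Scn7a.

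**Figure D5:**
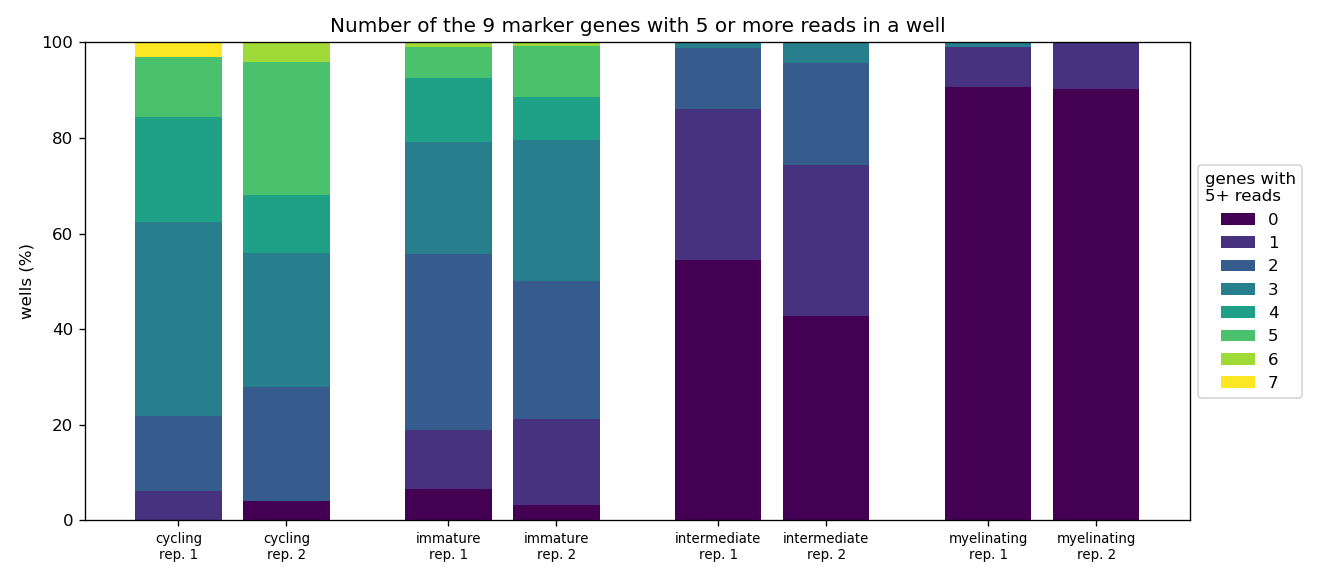
Wells of each state and plate by the number of the 9 marker genes with 5 or more reads, in percent of the wells. Wells with 3 or more genes are frequent among cycling and immature wells and number 4 of 149 intermediate and 1 of 221 myelinating wells.

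Promoter sequence is shown for 3 of the members with few positive wells above the Ncmap border. RefSeq promoters (GRCm38.p6, 250 bases before to 50 after a start) were held for Ngfr, L1cam, Chl1, Gfap, Scn7a and Ntm, and Ncam1, Gap43 and Cdh2 had no entry. The letters ACAANG on either strand, a core of sites of SOX factors such as Sox10, stood in at least 1 promoter of Scn7a, L1cam, Chl1 and Ntm and in none of Ngfr and Gfap, while 41.2% of 32851 promoters hold them. TGANTCA (AP-1) was in 0 of the 6 genes and 7.81% of all promoters. GCGNGGGCG (EGR) was in Scn7a and Ntm and 5.55% of all promoters. A match is a description and not a site. The stretches upstream of 3 of the starts are shown 5′ to 3′ on the strand of the gene, with the match in capitals (for Chl1 it reads on the other strand). They lie at chr2:66784911-66784970 on the minus strand, chrX:73880871-73880956 on the minus strand and chr6:103510691-103510776 on the plus strand.
Scn7a: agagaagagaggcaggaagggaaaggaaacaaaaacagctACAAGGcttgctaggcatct
L1cam: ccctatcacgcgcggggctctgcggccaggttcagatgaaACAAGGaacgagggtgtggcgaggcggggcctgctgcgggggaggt
Chl1: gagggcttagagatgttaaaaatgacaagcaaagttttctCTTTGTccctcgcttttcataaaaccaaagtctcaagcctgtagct

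Genes with the most similar pattern over single wells were named for each member by the smaller of its 2 within-plate Pearson correlations of log2(CPM + 10) over the 325 and 330 wells of all states, which share library chemistry and the state differences above. For Ncam1 these were Sparcl1 (0.676), a matricellular protein, Rarres2 (0.660), the precursor of chemerin, and Ednrb (0.636), the endothelin B receptor. For Scn7a they were Entpd2 (0.560), Fxyd1 (0.484), a regulator of the sodium pump, and Ptn (0.470), the growth factor pleiotrophin. For Ngfr they were Entpd2 (0.518), Lgals1 (0.455) and Ptn (0.437). For Ntm they were Smim5 (0.375), Ednrb (0.367) and Dab2 (0.340), and none of these was shared with Ngfr or Scn7a. L1cam had Scn7a (0.371), Entpd2 (0.365) and the matrix protein Postn (0.357), and Chl1 had Postn (0.340), Ptn (0.321) and Ngfr (0.314). For Cdh2, Gap43 and Gfap no gene reached 0.3, and no gene is named from such sparse counts.

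Relatives of the members moved in both directions between myelinating and immature wells, where 2.58% of all 13892 genes rose and 2.51% fell. Among 11 tested members of the L1 family, contactins and other immunoglobulin adhesion molecules, 3 rose and 3 fell, with a median log2 change of 0.21. Nfasc, which builds the node and paranode, rose from 2.47 and 1.18 to 94.2 and 119.7 CPM (log2 change 6.26, SE 0.578, edgeR adjusted p = 3.82e-04). Cadm1 fell from 564 and 699 to 35.3 and 31.1 CPM (log2 change -3.86, SE 0.237) and Alcam from 67.0 and 65.2 to 1.95 and 4.06 CPM (log2 change -4.08, SE 0.581, edgeR adjusted p = 0.00409, up to 0.0713 over the alternatives). Cadm3 and Mag rose and Mcam fell as well; these, Negr1, Bex3, Vim and Scn9a are named after their values were seen. Of the 3 IgLON relatives of Ntm tested, none passed, and Negr1 had 38.3 and 55.2 CPM in immature and 5.46 and 11.6 CPM in myelinating wells. Of 9 cadherins and catenins tested 1 rose, Cdh1 (E-cadherin), from 34.3 and 25.9 to 92.1 and 85.1 CPM (log2 change 1.94, SE 0.383, edgeR adjusted p = 0.0207), and none fell. Its call was lost under some alternatives (adjusted p up to 0.168).

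Of 8 tested neurotrophins and receptors, 4 fell and 0 rose, with a median log2 change of -1.49. Ntrk2, the receptor of BDNF, had 77.6 and 54.3 CPM in immature and 7.89 and 1.88 CPM in myelinating wells, and Ntrk3, the receptor of neurotrophin 3, had 51.7 and 67.6 and then 3.11 and 3.28 CPM. Sorcs2, a co-receptor of p75, had 20.1 and 38.7 and then 0.0102 and 0.183 CPM. Bex3, a p75-interacting protein, was the other gene that fell. The edgeR adjusted p was 0.0239 for Ntrk2, 0.0229 for Ntrk3, 0.0266 for Sorcs2 and 0.0242 for Bex3. Each of these calls was lost under at least 1 alternative, with adjusted p up to 0.0997, 0.0896, 0.0810 and 0.230 in this order. The ligands Ntf3 and Ntf5 had no read in any state. Of 8 growth-associated membrane and tubulin genes 1 fell, the protein kinase C substrate Marcks, from 707 and 762 to 142 and 145 CPM (log2 change -1.97, SE 0.229). Of 8 tested intermediate filament genes 1 rose, nestin (Nes), from 48.4 and 47.5 to 262 and 237 CPM (log2 change 2.76, SE 0.243), and Vim was high throughout, between 1159 and 2056 CPM. Of 4 tested sodium channel genes 1 fell, Scn9a, with 13.05 and 8.99 CPM in immature wells and no read in myelinating wells (edgeR adjusted p = 0.0234, up to 0.131 over the alternatives).

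Markers of other cells were measured beside these results. Of 655 wells, 641 had 5 or more reads in at least 3 of 6 Schwann cell genes. Of 9 neuronal genes, whose sum was 26.7 to 49.9 CPM in every state, 4 wells met this. It could not be met for endothelial, immune, pericyte or perineurial genes, of which at most 2 a list had reads. Of these, Pecam1, Cdh5, Ptprc, Rgs5 and Myh11 had no read in any state. Pdgfrb was positive in 4.72% and 4.10% of immature and 36.1% and 34.5% of myelinating wells. Itgb4 (perineurial) was in 34.0% and 42.6% and then 34.3% and 31.0%, and Slc2a1 in 10.4% and 5.74% and then 21.3% and 26.5%. Kdr was in 10.2% and 9.73% of myelinating wells, Cspg4 in 28.1% and 24% and Cd68 in 12.5% and 4% of cycling wells. Csf1r was in 2.83% and 7.38% of immature wells. Cldn5 was in 1.43% of intermediate wells of replicate 2. Of the neuronal genes, Uchl1 rose from 9.12 and 9.56 CPM in immature to 31.0 and 38.8 CPM in myelinating wells. Tubb3 fell from 17.6 and 24.3 to 3.13 and 2.80 CPM. The summed level of 6 fibroblast-like genes moved with the members, from 2415 and 3512 CPM in cycling and 2247 and 2517 CPM in immature wells to 1139 and 883 CPM in intermediate and 283 and 303 CPM in myelinating wells, and 22 wells met that list. Col1a1 and Col3a1 made up most of this sum, with Col1a1 positive in 91.5% and 96.7% of immature wells. Pdgfra and Pi16 had 0 reads in cycling and immature wells. Dcn was positive in 0% and 12% of cycling, 4.72% and 1.64% of immature and 6.33% and 4.29% of intermediate wells. Lum was positive in 0% and 1.64% of immature wells. The part of this in the result was not tested.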

How the data were processed

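Smart-Seq2 read counts per gene were deposited by the authors as raw counts in 1 table of both plates, with no normalization, for 25700 genes and 384 wells a plate. The submitters' processing notes name bcl2fastq, STAR 2.6.1c, featureCounts and GRCm38.p5, while the study's methods give other versions and a human build; the identifiers are mouse, and 25664 matched GENCODE vM21. The strand setting of the counting is not given in the sources used here. Plates held 226050990 and 203322077 reads. Without molecular identifiers, intervals (exact Clopper-Pearson, 95%) and floors (3 counts) cover counting error only.

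The 105 non-corner wells under 1500 genes and the 8 corner wells were left out. Reads were summed per plate and state into 8 sums, with plates as replicates. These were tested with edgeR 4.0.16 in R 4.3.3 (quasi-likelihood, TMM, filterByExpr, no plate term, 4 residual degrees of freedom), with Benjamini-Hochberg adjustment over 13892 genes and a threshold of 0.05. The 12 genes that set the states stayed in library sizes and out of the tests, but the states were cut from the same cells. Alternatives included DESeq2 1.42.0, other borders, filters, scalings and leaving out each sum. The script was tested on simulated data. Python 3.11.15, numpy 2.4.6, pandas 2.3.3 and scipy 1.17.1 were used. Sums of a plate share its pooled animals and are paired by it, and deviations of sums with the same plate number correlated at -0.0213 to 0.187 over 1975 genes. All 9 members were named, with the 3 genes most like each (correlations under 0.3 left unnamed) and from each related list at most 3 called genes of at least 10 CPM. The members and lists were chosen with earlier results of these data known. Some items are not reported here.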

Additional observations from a re-analysis of the deposited data

Results flagged for a closer look

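Wells left out of the comparisons still held reads of the markers, which is what flagged them. In the 105 wells under 1500 genes there were 10762 reads of any member, of which 8734 were Ncam1 (8 wells with 5 or more reads, 7.62%) and 1965 were Scn7a (5 wells). Chl1 had 38 reads, Ngfr 11, Ntm 7 and L1cam 4. The 8 corner wells held 26 reads of any member, of which 25 were Cdh2, in 2 wells.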

How the results depend on the processing

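The count of members called between cycling and immature wells was 0 in all 24 alternatives. Between intermediate and immature wells it was 1, and 2 with DESeq2, with a minimum of 2500 genes, without columns 8 and 16, with the Ncmap border at 200 CPM and without wells holding most reads of a member, and 1 to 2 when each sum was left out in turn. Between myelinating and intermediate wells it was 2, and 4 with DESeq2, 6 with no filter and 2 to 4 when each sum was left out. Between myelinating and immature wells it was 3, and 7 with DESeq2, 6 with no filter, 5 with the Ncmap border at 5 or 200 CPM, 5 when thinned to 100000 reads, 6 without wells holding most reads, 2 with the Pmp22 border at 20000 CPM and 2 to 6 when each sum was left out. It was 6 without either cycling sum or either intermediate sum. The cause was not tested. A replicate block for the plates gave 0, 1, 2 and 3 calls, so it changed no count. The shares of all genes called under the alternatives are not given here. Leaving out a sum assumes that the lone sum varies like the other states, and no test could be fitted without a whole plate. The Ncmap border of 200 CPM, the fit without TMM, the fits without a sum and those without wells holding most reads were chosen after seeing the data. Wells holding most reads were picked by the reads of the members themselves, so that setting is not independent of the values tested.

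Log2 changes that turned direction were not called. With 1 sum or plate left out, values between cycling and immature wells ran from -0.565 to 0.0756 for Ngfr, -0.215 to 0.365 for Ncam1, -0.363 to 1.09 for L1cam, -0.877 to 0.611 for Scn7a and -0.952 to 0.536 for Ntm, and between myelinating and intermediate wells from -8.39 to 3.21 for L1cam, -1.25 to 0.126 for Cdh2 and -8.55 to 0.921 for Scn7a. Between cycling and immature wells Ncam1 also turned when thinned (-0.0256), Scn7a with the replicate block (-0.0126), without TMM (-0.0595), with the Ncmap border at 200 CPM (-0.161) and with cycling from 2 genes (-0.441), and Ntm without wells holding most reads (0.0215). Cdh2 turned between myelinating and intermediate wells with cycling from 2 genes (0.0658). Without TMM the median log2 change of all genes between myelinating and immature wells was -0.42, against -0.04 with it.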
